A study of Populus tremula x Populus alba with 6 samples.

Results

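Gypsy-71_PTr-LTR, Gypsy-72_PTr-LTR and Gypsy-76_PTr-LTR are poplar repeat families named after the long terminal repeats (LTRs) of Gypsy retrotransposons. Their loci were selected from the 6 deposited lists of transposable element loci by the first family name of each entry. The rule found 57 of 436 listed loci, in 82 of 665 entries: 20 loci of Gypsy-71, 26 of Gypsy-72 and 11 of Gypsy-76. The families were chosen by what the lists hold, so their numbers of loci and shares of a list are given as a description, with no test.

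The 6 libraries came from shoot apical meristems of the poplar clone 717-1B4, a hybrid of Populus tremula and Populus alba. The genotypes were wild type (WT) and the RNAi lines 15 and 23, both directed against ddm1, a gene for a chromatin remodeller. Each genotype was sampled as a control and after drought followed by rewatering, called drought here, with 1 library per group, so no value has a replicate. The level of ddm1 is not measured by this assay.

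Mobilome-seq amplifies and sequences extrachromosomal circular DNA, which active transposable elements can leave behind. A Gypsy retrotransposon copies itself through an RNA intermediate. The finished DNA copy carries an LTR at each end, and joining of its ends, or recombination between its LTRs, can close it into a circle. LTRs also hold the promoter of the element, and in plants DDM1 is known to help keep such repeats methylated and silent.

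Each entry gives a locus and its depth value, headed DOC and read as depth of coverage, and a split-read value, headed SR and read as reads that cross a junction. Both are whole numbers as deposited, not scaled to library size, and no depth value below 3 or split-read value below 3 occurs in the lists. Lists held 44 to 169 loci. The lowest fraction of a listed locus covered by depth was 0.801. A locus missing from a list is called unlisted, because the lists rest on a threshold not given in the sources used here. An unlisted locus may thus have had signal over a smaller part of its length. In these bulk extracts, fewer cells with circles and fewer circles per cell cannot be told apart. Coordinates are counted from 1 on the chromosomes of the deposited tables, on a genome build that the sources used here do not give.

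The 3 families differed in length and in the names they shared. The Gypsy-72 loci had a median length of 518 bp (range 123 to 1133), the Gypsy-71 loci 255 bp (105 to 605) and the Gypsy-76 loci 302 bp (108 to 5870), against 249 bp for the 379 other loci. Gypsy-72 was mostly named alone, with a single name at 18 of 26 loci, while 7 of 20 Gypsy-71 loci and 4 of 11 Gypsy-76 loci had a single name. Further names at a Gypsy-71 locus were its own name again, Ogre-PT1_LTR, the LTR of a very large Gypsy element, at 8 of 20 loci, or Gypsy-30_PTr-LTR at 1. The reverse order, Ogre-PT1_LTR first and Gypsy-71 later, occurred at 7 further loci, which were not counted as members.

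Gypsy-76 shared its loci with the LTR families Gypsy-28, at 4 loci, and Gypsy-27, at 2. Gypsy-72 carried the name Gypsy-25_PTr-LTR at 2 loci and Ogre-PT1_I-int at 1. Gypsy-25 came first and Gypsy-72 later at 5 further loci, not counted as members. Gypsy-72 was also the family that carried names of other classes. They came from hAT-5_PTr, a DNA transposon of the hAT superfamily, at 3 loci, from Helitron-N2_PTr, of the rolling-circle class, at 2, and from EnSpm3_PT, of the CACTA class, at 1. No Gypsy-71 or Gypsy-76 member carried a Helitron, hAT or EnSpm name. In all, 23 more loci, in 29 entries, held 1 of the 3 family names after another first name.

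The members were spread over 16 chromosomes, with no 2 members within 20000 bp of each other. The closest were Gypsy-76 loci on chromosome 7, at 7484964 to 7485853, 7518130 to 7518568 and 7549985 to 7550286, which lay 32276 bp and 31416 bp apart. This group was singled out after its positions were seen. The first was listed in both WT libraries, the middle one in WT drought alone, and the last in WT control and line 15 drought.

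Drought and control lists were first compared by the number of member loci, which answers whether more copies of these families were listed after drought. WT had 18 member loci under control watering and 21 after drought. Line 15 had 17 and 12, and line 23 had 9 and 5. The number was thus higher after drought in WT and lower in both RNAi lines, with a mean difference of -2 loci (SD 4.36 over n = 3 genotypes). The mean turned to 1.33 without Gypsy-71 and also to 1.33 with single-name loci only, and it was -5 when any of the names counted.

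As a share of the list, the members were higher after drought in 3 of 3 genotypes. The lists themselves were shorter after drought, going from 149 to 115 loci in WT, 169 to 79 in line 15 and 109 to 44 in line 23. In both RNAi lines the share thus rose while the number of members fell. They made up 12.1% of the WT control list (exact 95% Clopper-Pearson interval 7.32 to 18.4) and 18.3% of the WT drought list (11.7 to 26.5). The share was 10.1% (5.97 to 15.6) and 15.2% (8.10 to 25.03) in line 15, and 8.26% (3.85 to 15.1) and 11.4% (3.79 to 24.6) in line 23. The 2 intervals of each genotype overlapped, which is not a test. They treat the loci of a list as independent, though loci share repeat sequence, and they cover counting error alone. The mean difference was 4.81 percentage points (SD 1.56, n = 3). Without Gypsy-72 it was 1.26 points, higher in 2 of 3 genotypes. It was 5.27 without Gypsy-71 and 5.87 with a depth value of at least 20, again higher in 2 of 3 in both cases, and 3.09 without Gypsy-76.

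**Figure D1:**
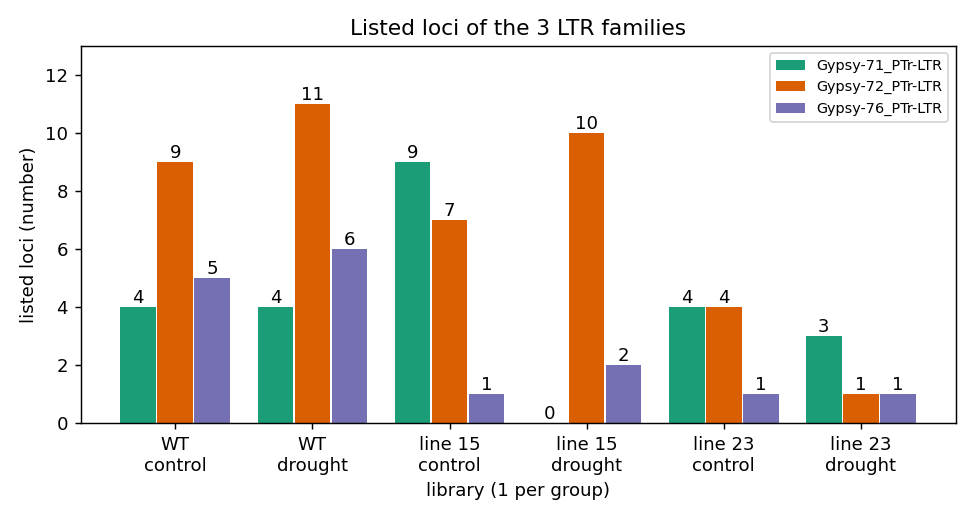
Number of listed loci (vertical axis) of each family in each of the 6 libraries (horizontal axis, 1 library per group). Gypsy-72 has the tallest bar in both WT libraries and in line 15 drought, and Gypsy-71 has no locus in line 15 drought.

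The families did not follow each other. Gypsy-72 went from 9 control to 11 drought loci in WT and from 7 to 10 in line 15, but from 4 to 1 in line 23. As a percent of the list this was 6.04 to 9.57 in WT, 4.14 to 12.7 in line 15 and 3.67 to 2.27 in line 23. Line 15 and line 23 thus went opposite ways for Gypsy-72.

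Gypsy-71 had 4 loci in each WT library, 9 in line 15 control and none in line 15 drought, and 4 and 3 in line 23. Line 15 therefore held both the longest and the emptiest Gypsy-71 list. Gypsy-76 had 5 and 6 loci in WT, 1 and 2 in line 15, and 1 in each line 23 library. As a percent of the list Gypsy-76 was higher after drought in 3 of 3 genotypes, by 1.86, 1.94 and 1.36 points, on numbers that differed by at most 1 locus.

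Listing was then followed locus by locus. In WT, 14 of the 32 members listed in either library were listed after drought and not under control watering (43.8%), where the same held for 34.1% of all loci listed in WT. In line 15 it was 9 of 26 members (34.6%), against 22.5% of all loci, and in line 23 it was 4 of 13 (30.8%), against 21.0%. The members' share lay above that of all loci in 3 of 3 genotypes, a difference that is described here and not tested. In line 15 the 9 loci were 7 of Gypsy-72 and 2 of Gypsy-76. Members listed in both libraries of a genotype numbered 7 of 32 in WT, 3 of 26 in line 15 and 1 of 13 in line 23, against 16.8%, 13.8% and 10.9% of all loci.

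All 11 of these repeat listings were at Gypsy-72 or Gypsy-76 loci. None of the 8 Gypsy-71 loci of WT, the 9 of line 15 or the 7 of line 23 was listed under both waterings of its genotype. Over the 6 libraries, 3 of 20 Gypsy-71 loci, 7 of 26 Gypsy-72 loci and 3 of 11 Gypsy-76 loci were listed in 2 or more. The members' total of 13 of 57 (22.8%) compares with 26.6% of all loci.

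Loci listed in 3 or more libraries were 6 of the 57 members, 4 of them Gypsy-72, against 59 of the 379 other loci. By share this was lower for the members. The Gypsy-72 locus on chromosome 1 (38198036 to 38198481, 446 bp), which also carries an Ogre and a Helitron name, was the member listed in all 6 libraries. Its control and drought depth values were 43 and 28 for WT, 66 and 34 for line 15, and 44 and 30 for line 23. Each drought value lay below the control value of its genotype, and all 6 lay between 28 and 66. Split-read values were 4, 3, 8, 3, 4 and 8 in the same order, so that line 23 alone was higher after drought on that measure. When depth was divided by the summed depth of the list, the locus was higher after drought in WT (log2 ratio 0.97) and line 23 (0.44) and lower in line 15 (-0.48). The control sums rest largely on a non-member locus of 221 bp that no drought list held. The drought sums rest in large part on a non-member locus of 8194 bp. Ratios without these loci were not computed.

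The Gypsy-72 locus on chromosome 2 (5326804 to 5327529, 726 bp), whose other name is hAT-5_PTr, was listed in both libraries of WT and of line 15. Its control and drought depth values were 130 and 306 for WT and 266 and 152 for line 15, and line 23 did not list it. It was higher after drought in WT (log2 ratio 1.24) and lower in line 15 (-0.81), on depth as deposited, on depth divided by the list's sum (2.83 and -0.33) and on ranks (0.25 and -0.20). Split-read values did not share this contrast. They were 14 and 13 in WT and 19 and 16 in line 15.

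A second Gypsy-72 locus on chromosome 1 (40835193 to 40835830, 638 bp) was listed in 4 libraries, with a depth value of 280 for WT drought, 58 and 60 for line 15 control and drought, and 32 for line 23 control. WT drought stood apart from the other 3 libraries. The split-read values, 13, 5, 3 and 6 in the same order, were low throughout. The line 15 values were close, with a log2 ratio of 0.05 on depth that turned to -0.07 on ranks and -0.74 on split reads.

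The Gypsy-72 locus on chromosome 11 (11626981 to 11627318, 338 bp) carried a single name and had high values on both measures. Its depth value was 106 in the WT control, 434 after drought in WT and 130 after drought in line 15, and its split-read value was 60, 368 and 46. In WT drought it held the first split-read rank and the third depth rank among 115 loci. After drought its WT log2 ratio was 2.03 on depth and 2.62 on split reads, the highest of the 7 WT ratios on both. It was 3.63 on depth divided by the sum and 0.39 on ranks, where 2 other members had higher rank ratios.

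The Gypsy-76 locus on chromosome 8 (17852229 to 17852435, 207 bp) was listed 4 times, with depth values of 49 and 37 for WT control and drought, 45 for line 15 drought and 26 for line 23 control. Its split-read values were 9, 3, 9 and 3. The Gypsy-71 locus on chromosome 8 (400236 to 400355, 120 bp) had a depth value of 104 after drought in WT and of 83 and 38 in the controls of lines 15 and 23, with split-read values of 111, 18 and 12. WT drought was the highest of its 3 libraries on both measures. This was the only Gypsy-71 locus listed in more than 2 libraries.

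**Figure D2:**
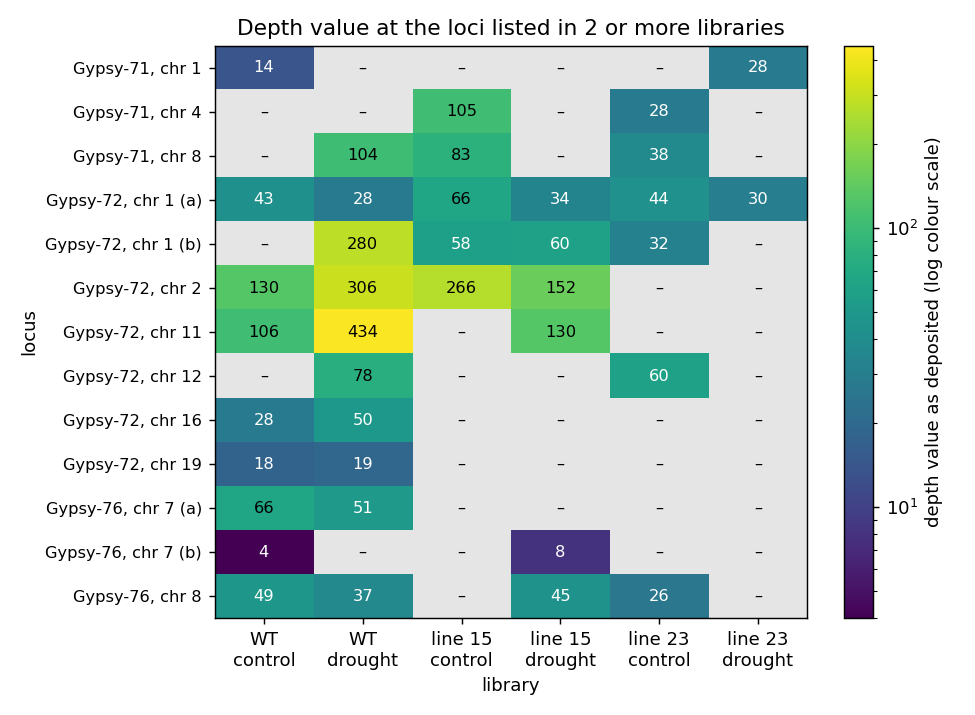
Depth value as deposited (printed in each cell and shown on a log colour scale) at the 13 members listed in 2 or more libraries. Rows are loci, named by family and chromosome, columns are libraries, and grey cells with a dash are unlisted. Gypsy-72 on chromosome 1 (a) fills the only complete row, with values from 28 to 66.

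Pairs of libraries shared the other repeat loci. In WT, Gypsy-72 on chromosome 16 (4751137 to 4752008) had depth values of 28 in control and 50 after drought, Gypsy-72 on chromosome 19 (11926335 to 11926487) had 18 and 19, and Gypsy-76 on chromosome 7 (7484964 to 7485853) had 66 and 51. Divided by the list's sum, all 3 were higher after drought, with log2 ratios of 2.43, 1.67 and 1.22. The WT control sum used for this includes the non-member locus of 221 bp, and the WT sums of both waterings include that of 8194 bp. Gypsy-76 at 7549985 on chromosome 7 had low values, 4 in WT control and 8 in line 15 drought, below its split-read values of 10 and 9. Gypsy-72 on chromosome 12 (5492023 to 5492779) was listed in WT drought (78) and line 23 control (60). Gypsy-71 on chromosome 4 (17571297 to 17571742) was listed in the controls of line 15 (105) and line 23 (28), and Gypsy-71 on chromosome 1 (34470092 to 34470287) in WT control (14) and line 23 drought (28).

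At members listed under both waterings, the depth values gave a median log2 ratio (drought over control) of 0.08 for the 7 loci of WT, -0.81 for the 3 of line 15 and -0.55 for the 1 of line 23. The mean over genotypes was -0.43 (SD 0.46, n = 3, exact two-sided sign-flip p = 0.5, where 3 genotypes allow no p below 0.25). Dividing depth by the list's sum turned it to 0.59, and split reads in place of depth turned it to 0.052. Division by the sum adds 1.59 to every ratio in WT, 0.47 in line 15 and 0.99 in line 23. The control sums rest largely on the non-member locus of 221 bp, which no drought list held. Its control depth was 49200 of a sum of 92011 in WT, 51684 of 69585 in line 15 and 36388 of 44510 in line 23. The drought sums rest in large part on another non-member locus, of 8194 bp. Its drought depth was 22796 of 30529 in WT, 24823 of 50114 in line 15 and 14317 of 22388 in line 23. Among the controls it was listed in WT alone, with a depth of 20299. Without the locus of 221 bp, the rest of the control sum would be smaller than the drought sum in lines 15 and 23. The shift would then be negative in both lines. The size of the shifts without these loci was not computed. In WT, division by the sum left all 7 ratios above 0, while 4 of 7 were above 0 as deposited.

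Members listed in a single library numbered 44 of 57, and some of them held the highest values. The longest was Gypsy-76 on chromosome 15 (6424709 to 6430578, 5870 bp), listed in WT control with a depth value of 1142 and a split-read value of 242. It ranked 4 of 149 on both measures. Its entry carried the name Gypsy-76 at all 3 places, and its split reads covered a fraction of 0.419 of the locus. Depth covered a fraction of 0.802 of the locus, near the lowest of the lists, 0.801. It held 53.9% of the members' summed depth in WT control. With it the members held 2.30% of the summed depth of that list, and without it 1.06%.

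Gypsy-71 on chromosome 7 (9592206 to 9592564) had a depth value of 402 and a split-read value of 33 in WT control alone. Gypsy-71 on chromosome 10 (2168968 to 2169236) had 78 and 72 in line 23 control alone, where it was the member with the highest value on both measures. Gypsy-72 on chromosome 10 (4360000 to 4360667) had 154 and 4 in line 15 drought alone. Depth and split reads thus ranked these loci differently.

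The highest split-read value of any member was 1060, at Gypsy-72 on chromosome 4 (20672764 to 20673242, 479 bp), in line 15 drought alone. Its depth value there was 80, its depth rank 25 and its split-read rank 1 of 79 loci, and split reads covered a fraction of 0.770 of its length. This locus held 87.6% of the members' summed split reads in that library. The other split-read values of members in line 15 drought were at most 46.

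Other family maxima were low. The highest Gypsy-76 depth value was 10 in line 15 control, on chromosome 5 (1850451 to 1850567), and 4 in line 23 drought, on chromosome 2 (1182024 to 1182131). In line 23 drought the 5 members had depth values between 4 and 30, with a median of 14. Among the other libraries the median was 25 and 32 for WT control and drought, 38 and 50.5 for line 15, and 32 for line 23 control. Members with a depth value under 20 numbered 7 of 18, 8 of 21, 6 of 17, 2 of 12, 2 of 9 and 3 of 5 in the order of WT, line 15 and line 23, control before drought.

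The RNAi lines were then set against WT, which asks whether their lists held more copies of these families. The 4 RNAi libraries had a mean of 10.75 member loci (SD 5.06, n = 4, both waterings) against 19.5 for the 2 of WT (18 and 21). The difference was -8.75 loci, and each RNAi library held fewer members than either WT library. List length ranged from 44 loci (line 23 drought) to 169 (line 15 control). Between these lay line 15 drought with 79 loci, line 23 control with 109, WT drought with 115 and WT control with 149. The line 15 control list was thus longer than either WT list, yet its 17 members were fewer than the 18 of WT control. As a share of the list the groups overlapped across waterings, since the 15.2% of line 15 drought lay above the 12.1% of WT control. Within each watering both RNAi lines lay below WT. The shares of lines 15 and 23 were 10.1% and 8.26% against 12.1% in the controls. After drought they were 15.2% and 11.4% against 18.3%. The difference in number was -5 under control watering and -12.5 after drought, and it shrank to -4.5 with a depth value of at least 20, -4.25 without Gypsy-72, -4.5 without Gypsy-76 and -3.75 with single-name loci only.

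Gypsy-76 was listed mainly in WT. Of its 11 loci, 7 were in a WT library and in no RNAi library, 2 were in RNAi libraries alone, and 2 were in both. For Gypsy-72 the same counts were 10, 11 and 5, and for Gypsy-71 they were 6, 12 and 2. Together 23 of 57 members (40.4%) were listed in WT and in no RNAi library, against 30.5% of all loci, and 25 (43.9%) in an RNAi library and in no WT library, against 48.2%. There were 4 RNAi libraries to 2 of WT, so the 2 directions are not alike in opportunity, and the families' difference was not tested.

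Split reads relative to depth were compared next, a measure that the family name does not use. In the median over its 42 entries a Gypsy-72 locus had 0.167 split reads per unit of depth, against 0.378 for Gypsy-71 (24 entries) and 0.434 for Gypsy-76 (16 entries). Gypsy-72 was below Gypsy-76 in 5 of 6 libraries, with a mean log2 difference of -1.22 (SD 0.82, n = 6, exact sign-flip p = 0.0625, adjusted over 3 pairs p = 0.188). Gypsy-71 was above Gypsy-72 in 4 of the 5 libraries that list both, by 1.23 (SD 1.05, n = 5, exact sign-flip p = 0.125, adjusted p = 0.188). Gypsy-71 and Gypsy-76 differed by 0.13 (SD 1.49, n = 5, exact sign-flip p = 0.688, adjusted p = 0.688). None of the 3 pairs passed 0.05, which the number of libraries fixed in advance. The smallest possible exact p is 0.0625 with 5 libraries and 0.0312 with 6, so no adjusted p could pass. With a depth value of at least 20, the difference of Gypsy-72 and Gypsy-76 was -0.65 over 4 libraries and that of Gypsy-71 and Gypsy-76 was 1.54 over 3. The libraries share loci and genotypes, so they are not fully independent, and several medians rest on 1 locus.

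**Figure D3:**
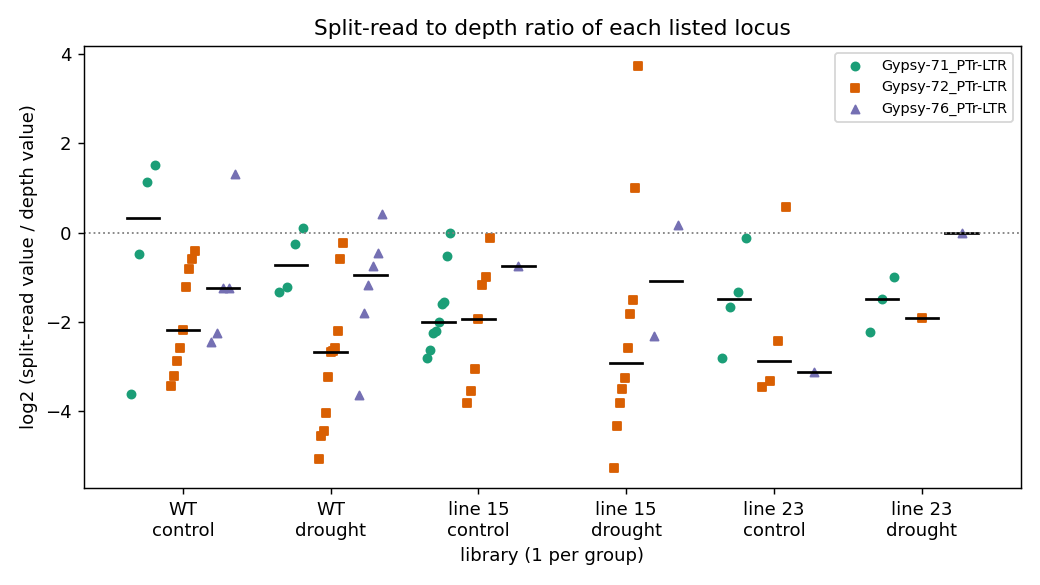
Log2 ratio of split-read to depth value (vertical axis) of every listed member in each library (horizontal axis), with a point per locus and a black bar at the family's median. Most points lie below 0, and the highest, at 3.73 in line 15 drought, is the Gypsy-72 locus on chromosome 4.

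Split reads exceeded depth in 9 of 82 member entries (10.98%), 3 from each family, and in 9.78% of the entries of all other loci. Beside the chromosome 4 locus, the largest excess was at Gypsy-71 on chromosome 6 (1959920 to 1960295), with 60 split reads on a depth value of 21 in WT control.

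Set against all other loci of each list, the members passed 0.05 on none of 4 measures. The log2 ratio of split reads to depth, members minus others, was -0.31 in the mean of 6 library medians (SD 0.46, exact sign-flip p = 0.188, adjusted p = 0.25). The fraction of a locus covered by split reads differed by -0.0906 (SD 0.113, exact p = 0.188, adjusted p = 0.25). Length differed by 59.1 bp (SD 139.5, exact p = 0.375, adjusted p = 0.375), and depth per 100 bp by -1.45 (SD 1.89, exact p = 0.156, adjusted p = 0.25). Libraries differed in direction on all 4 measures, with n = 6.

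These differences depended on the loci compared. Members were shorter than all other Gypsy loci, named as LTR or not, in 6 of 6 libraries. The mean difference of medians was -139.6 bp (exact sign-flip p = 0.0312, the smallest possible, adjusted p = 0.125). Compared only with other Gypsy loci named as LTR, members were longer in 4 of 6 libraries, by 47 bp (exact sign-flip p = 0.469, adjusted p = 0.469). With a depth value of at least 20, members had less depth per 100 bp in 6 of 6 libraries (-5.69, exact sign-flip p = 0.0312, adjusted p = 0.125). With means in place of medians the length difference was -131.9 bp, also in 6 of 6 libraries, at the same p-values. Depth per 100 bp with means differed by -114.8, lower in 5 of 6 libraries (exact sign-flip p = 0.0625, adjusted p = 0.125). In the controls the other loci include the locus of 221 bp with a depth value of 36388 to 51684, which weighs on a mean. Against other Gypsy loci named as LTR, the log2 ratio of split reads to depth differed by -0.61, in 5 of 6 libraries (exact sign-flip p = 0.0938, adjusted p = 0.188).

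The signals moved with locus length. Across the 57 members, Spearman's rho of length with mean depth was 0.63, and with the fraction covered by split reads -0.51, where the 379 other loci gave 0.56 and -0.62. These are descriptions across loci, which share libraries and repeat sequence and are not replicates. The stretch covered by split reads was of similar size in the families, with a median of 107.5 bp per locus for Gypsy-71, 133 bp for Gypsy-72, 102.5 bp for Gypsy-76 and 112.7 bp for all other loci. The part played by length in the differences between families was not tested.

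**Figure D4:**
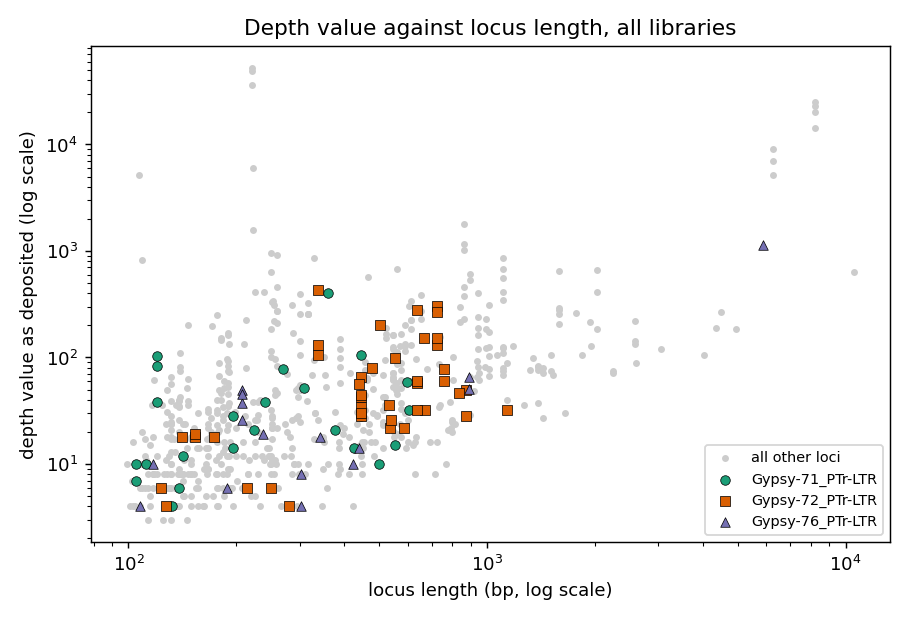
Depth value as deposited against locus length in bp, both on log axes, with a point for each entry of the 6 lists. The 3 families (coloured) lie within the cloud of all other loci (grey), and the Gypsy-76 locus of 5870 bp stands alone at the right with a depth value of 1142.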

How the data were processed

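The study deposited 6 lists of transposable element loci, 1 per library, each assigned to the sample whose title is its sheet's name. CTAB extracts were amplified for extrachromosomal DNA and made into Nextera XT libraries, per the labels' protocols, with 2 reads of 250 bp per fragment on a MiSeq. The submitters' processing notes list Bowtie2 without a version, with counting tool, filters and genome build not given in the sources used here. Per the file headers, the authors give each locus a depth and a split-read signal, deposited without scaling, and the covered part of its length, deposited as a fraction. Whether the signals are read counts is not stated, so no count model was fitted. Library depth is unknown.

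Members were found by first family name and matched by identical coordinates. Starts, counted from 0 in the tables, are given from 1. Python 3.11.15, pandas 2.3.3 and scipy 1.17.1 were used. Tests are two-sided exact sign-flip tests over genotypes or libraries, checked on simulated data, with Benjamini-Hochberg adjustment over 4 measures or 3 family pairs. Loci were named if listed in 3 or more libraries, if highest in depth for their family in a library, if highest in split reads for their family, or if within 20000 bp of another member. Numbers and shares of members, which the choice of families used, are given without the planned tests. Others named were chosen after their values were seen. Members and lists were chosen with earlier results of these data known. No sequence of a locus is printed, since no reference was used here. Alternatives were a minimum depth of 20, merging within 1000 bp, other name rules, other scalings, means for medians, other comparison loci, and leaving out a family, genotype or library.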

Additional observations from a re-analysis of the deposited data

Results flagged for a closer look

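In 3 results the genotypes went in opposite directions between control and drought, with 1 pair of libraries per genotype, and the differences between genotypes were not tested. The number of loci of the 3 families, drought minus control, came to 3 for WT, -5 for line 15 and -4 for line 23. The number of Gypsy-72_PTr-LTR loci differed by 2 for WT, 3 for line 15 and -3 for line 23. The log2 depth ratio at the Gypsy-72_PTr-LTR locus on chromosome 2 (start 5326804) came to 1.24 for WT and -0.81 for line 15. With single pairs, opposite directions also arise from noise.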

How the results depend on the processing

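Of 79 recomputed values of the main comparisons, 69 kept their direction, and 10 turned it. No adjusted p of an exact test fell below 0.05, which those of the family pairs could not do. The unadjusted exact p was 0.0312 for length against all other Gypsy loci and for length with means. It was also 0.0312 for depth per 100 bp with a depth value of at least 20. The number of member loci, drought minus control, turned from -2 to 1.33 with single-name loci and to 1.33 without Gypsy-71. The depth ratio at loci listed in both libraries turned from -0.43 to 0.59 on division by the list's sum and to 0.052 on split reads. The control sums include the non-member locus of 221 bp, and the drought sums include that of 8194 bp. The ratio without these loci was not computed. For members minus all other loci, depth per 100 bp turned from -1.45 to 1.92 against other Gypsy LTR loci. Length turned from 59.1 bp to -139.6 bp against all other Gypsy loci and to -131.9 bp with means. The log2 ratio of split reads to depth turned from -0.31 to 0.20 with means. With loci listed in 1 library only, that log2 ratio turned to 0.029 and depth per 100 bp to 2.20. The cause was not tested.

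Leaving out a genotype or library gave -4.5 to -0.5 loci for drought minus control, 4.12 to 5.66 points for the share, -10.8 to -6.83 loci for RNAi minus WT, and -0.68 to -0.24 for the depth ratio. Against all other loci it gave -0.41 to -0.25 for log2 split reads to depth, -0.114 to -0.0719 for the fraction covered, 22 to 119.5 bp for length and -1.59 to -1.29 for depth per 100 bp. Of 11 locus ratios, 4 changed sign on division by the sum, 4 on ranks and 5 on split reads. Drought and control were paired by genotype throughout, and no fit with a replicate block was made because the labels give no replicate numbers. Merging within 1000 bp left the number differences at -2 and -8.75. With 1 library per group and unknown depth, an unlisted locus cannot be told from a weak or partly covered one.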
